A study of Equus caballus with 9 samples.

Results

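Equine adult tenocytes were compared with tenocytes derived from embryonic stem cells (ESC-tenocytes), both kept in 3D culture. The libraries were chosen by their labelled cell type, which gave 6 of the 9 libraries of the series, 3 of each group. The question was how far gene expression in ESC-tenocytes differed from that in adult tenocytes under 3D culture. Messenger RNA was sequenced from collagen gel constructs after 14 days, with 1 library per line.

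The adult tenocytes came from the superficial digital flexor tendon of Thoroughbred horses labelled as 2 to 6 years old, with no treatment. Line CD was at passage 4, TB130911 at passage 6 and TB250718B at passage 4. The ESC-tenocytes came from lines HJ at passage 12, IG at passage 16 and PW at passage 14, each isolated from a separate embryo. They were differentiated in the gels in stem cell medium from which leukaemia inhibitory factor had been withdrawn, whereas adult tenocytes were kept in tenocyte medium. ESCs were seeded as clumps and tenocytes as a cell suspension, and every ESC line was at a higher passage than every adult line. Cell source, medium, form of seeding and passage therefore cannot be told apart. Undifferentiated ESCs had been kept on mouse feeder cells.

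Tenocytes are the fibroblast-like cells of tendon. They make and organise its collagen-rich extracellular matrix and, seeded in a collagen gel held under tension, they contract and align it. Pluripotent stem cells can be driven towards the same lineage in such gels, but differentiating cultures often hold cells at several stages or of several kinds. The values here are means over whole constructs, in which fewer cells of a type and less RNA per cell cannot be told apart.

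Total estimated counts were 11109488 in CD, 20411868 in TB130911 and 18536663 in TB250718B. They were 9412099 in HJ, 10772471 in IG and 8965590 in PW. Both TB lines thus had higher totals than the other 4 libraries, which lay close together. These totals are counts assigned to genes, not reads sequenced. The floor used for low genes was 3 counts per library, an upper limit for a count of 0 that covers counting error only. In CPM, which are counts scaled to library sizes adjusted by TMM, this floor was between 0.147 and 0.302. The deposited values list Ensembl identifiers and do not pair them with gene names, and the markers that define tendon, cartilage, bone or pluripotent cells were therefore not analysed here. The labelled cell types were not checked against such markers.

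ESC line IG stood apart from the other libraries. Across the 12791 genes tested, Pearson's r of log2 CPM was 0.965 between HJ and PW, 0.920 between HJ and IG and 0.912 between IG and PW. Pairs of adult lines lay between 0.964 and 0.971. Between groups r ran from 0.454 to 0.586, and each adult line was closest to IG among the ESC lines. These are values across genes, which are not independent replicates, and they carry no test. On the first principal component (88.0% of the variance) the adult lines scored -145 (CD), -139 (TB130911) and -145 (TB250718B). HJ scored 167, PW 159 and IG 102. The second component (5.80%) placed IG at 77.7, against -23.1 for HJ and -39.5 for PW. The ESC-tenocytes varied more among themselves than the adult lines, with a biological coefficient of variation of 41.2% against 26.6%. It was 28.0% in HJ and PW alone. Several of the counts, sizes and shares below are given with and without IG.

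Between adult and ESC-tenocytes 2458 of 12791 genes tested were DE, which is 19.2%. DE meant that edgeR's quasi-likelihood test gave an adjusted p (Benjamini-Hochberg) under 0.01 and that the Log2FC was at least 2 in size. Of these, 1236 were higher in adult tenocytes (9.66%) and 1222 were higher in ESC-tenocytes (9.55%). The calls were thus divided almost evenly in this fit. DESeq2 called 1541 genes higher and 1327 lower in adult tenocytes. With all 9 libraries and a group term, edgeR called 1487 higher and 1235 lower. The count of DE genes in edgeR was 1453 without TB250718B and 2862 of 13082 genes (21.9%) without IG. Genes higher in adult tenocytes numbered 582 without TB250718B, 706 without CD, 816 without HJ and 817 without TB130911. A batch inferred for these libraries, which stands in no label, places the TB lines, with the higher totals, apart from CD and all 3 ESC lines. The study names a pair of sequencing providers with different library kits and instruments, the labels give the same stranded kit for every library, and which library went to which provider is not given in the sources used here. With the inferred batch as a term 971 genes were DE, 393 higher and 578 lower in adult tenocytes, and with CD as the single adult library 420 were DE, 89 higher and 331 lower. In both of these fits the comparison rests on CD. With the same batch and all 9 libraries of the series in the fit 2284 were DE, 1253 higher and 1031 lower.

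The change was large for the genes that passed, as a call at a Log2FC of at least 2 in size makes likely. Over all genes tested the median Log2FC was -0.01 and the median size was 0.74. Among DE genes the median fitted Log2FC was 4.26 for those higher in adult tenocytes and -4.98 for those higher in ESC-tenocytes. With every count raised to at least the floor of 3, so that a gene at 0 is held at its bound, these medians were 3.85 and -4.43. In CPM the floor was 0.147 in TB130911, 0.173 in TB250718B and 0.296 in CD, against 0.281 to 0.302 in the ESC lines. At the same CPM, a gene at 0 in the adult lines can thus reach a larger change on this scale than a gene at 0 in the ESC lines. Without IG the fitted medians were 5.65 and -5.18, where the genes higher in adult tenocytes had the larger change, and those held at the floor were 4.33 and -4.34.

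How the largest changes were divided between the directions depended on IG. On the scale held at the floor, 45 genes higher in adult tenocytes and 153 higher in ESC-tenocytes changed by 8 log2 units or more, over all genes tested. Of these, 12 and 152 were DE. In the class from 6 to 8 there were 240 and 204 genes, of which 159 and 199 were DE. Without IG the class of 8 or more held 149 and 146 genes, of which 149 and 145 were DE, and the class from 6 to 8 held 270 and 200, of which 266 and 199 were DE. The excess of very large changes towards ESC-tenocytes was thus present with IG and absent without it. Both counts carry the lower floor of the TB lines in CPM, which favours large changes towards ESC-tenocytes on this scale. In the class from 4 to 6 there were 535 and 357 genes with IG and 546 and 357 without it, more of them higher in adult tenocytes either way.

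The values of the adult and ESC lines did not overlap for 65.4% of the genes tested, 4175 of them higher and 4189 lower in adult tenocytes. A DE gene nearly has to be of this kind, and all 2458 were. Without the fold change threshold 4458 genes had an adjusted p under 0.01 in the same test, 2203 higher and 2255 lower in adult tenocytes. For 4600 genes (36.0%) the 95% confidence interval of the Log2FC lay within a 2-fold change in either direction. This count was 4048 (30.9%) without IG and 2687 with CD as the single adult library.

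Large changes were less often called when the gene was higher in adult tenocytes. The Log2FC was 2 or more for 1733 genes, of which 71.3% were DE and 497 were not. It was -2 or less for 1400 genes, of which 87.3% were DE and 178 were not. Without IG these shares were 80.5% of 2035 genes and 86.6% of 1412 genes, so that the difference narrowed. In 437 of the 497 uncalled genes (87.9%) IG was the highest of the ESC lines. IG was the highest in 905 of the DE genes higher in adult tenocytes (73.2%) and in 45.2% of all genes tested. Without IG, 460 genes higher in adult tenocytes were gained and 57 were lost, which gave 1639. Those gained had a median of 31.5 CPM in adult tenocytes. In the opposite direction 76 were gained and 75 lost, which gave 1223. The genes called in both fits numbered 1179 and 1147. Leaving out IG thus changed the list of genes higher in adult tenocytes far more than that of genes higher in ESC-tenocytes.

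**Figure D1:**
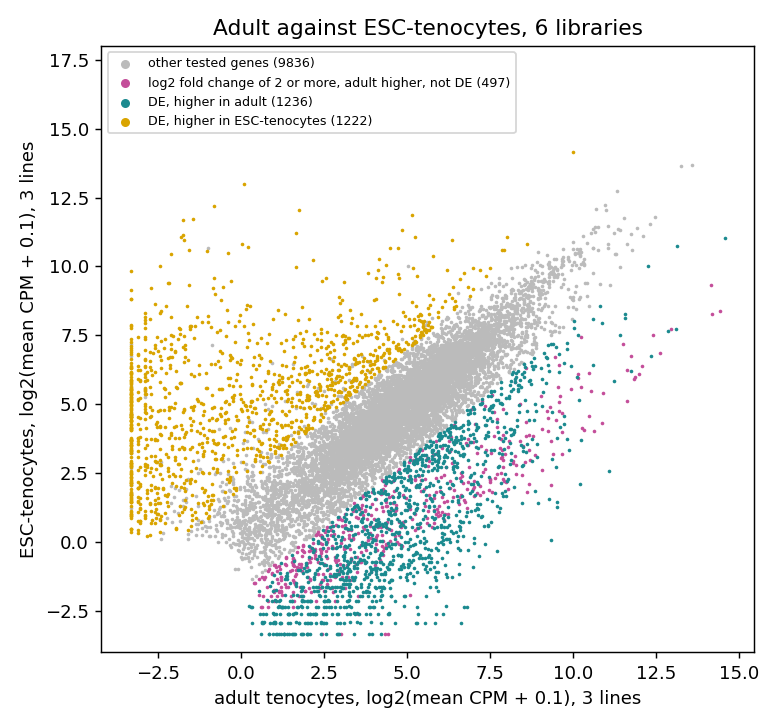
Mean expression of each tested gene in adult tenocytes (horizontal axis) and ESC-tenocytes (vertical axis), as log2 of the mean CPM of 3 lines plus 0.1. Colours mark 1236 DE genes higher in adult tenocytes, 1222 higher in ESC-tenocytes and 497 genes with a Log2FC of 2 or more that were not DE. Many DE genes higher in ESC-tenocytes lie on the left edge, where the adult counts are at or near 0. The 178 genes with a Log2FC of -2 or less that were not DE are among the grey points.

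DE genes occurred at every level of abundance. CPM is not divided by gene length, so a class of abundance holds long genes of low expression beside short genes of higher expression. By the mean of both group means, 38.5% of the 174 genes under 1 CPM were DE. The share fell to 14.1% of the 3976 genes from 30 to 100 CPM, and was 27.1% of the 107 genes at 1000 CPM or more. The median size of the Log2FC followed the same course, at 2.23, 0.57 and 0.97. Genes with a low mean pass the filter mainly through the libraries of 1 group, which favours genes that differ. At 1000 CPM or more, 14 of the 28 genes with a Log2FC of 2 or more were DE, and so were all 15 genes of that class with a Log2FC of -2 or less. Without IG all 28 and all 13 such genes of that class were DE.

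**Figure D2:**
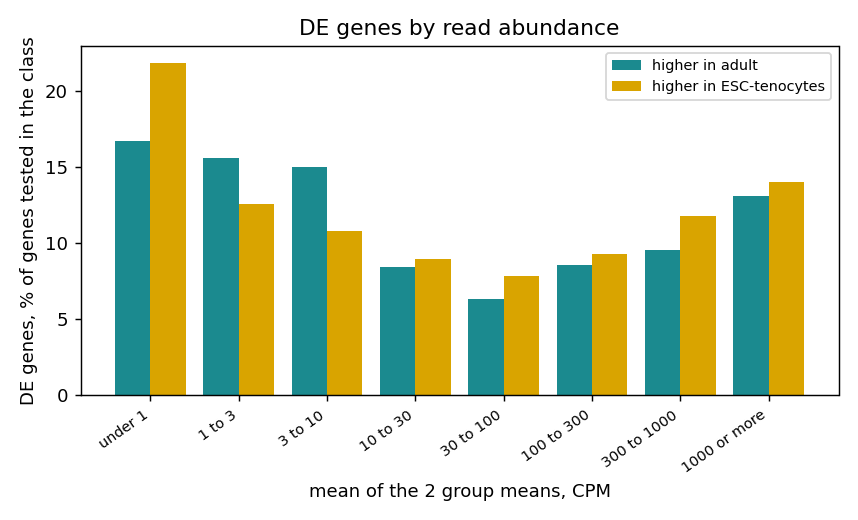
DE genes as a percentage of the genes tested in 8 classes of mean CPM, for genes higher in adult tenocytes and genes higher in ESC-tenocytes. The shares are lowest from 30 to 100 CPM, at 6.31% and 7.82%.

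By their medians, DE genes were moderately expressed in 1 group and low in the other. Those higher in adult tenocytes had a median of 27.7 CPM there and 1.28 CPM in ESC-tenocytes. Those higher in ESC-tenocytes had a median of 40.1 CPM there and 0.697 CPM in adult tenocytes. Without IG these medians were 29.6 and 0.453 CPM, and 38.4 and 0.620 CPM. The genes higher in adult tenocytes held 18.8% of counts in CD, 15.6% in TB130911 and 18.7% in TB250718B. They held 1.73% in HJ, 2.07% in IG and 1.50% in PW. The genes higher in ESC-tenocytes held 21.3% in HJ, 22.0% in IG and 18.4% in PW, against 0.834% in CD, 1.07% in TB130911 and 1.01% in TB250718B. The groups lay far apart in both shares, as the choice of these genes makes likely.

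The call in edgeR left out much of the most abundant adult expression. Genes with a Log2FC of 2 or more, called or not, held 36.1% of counts in CD, 28.7% in TB130911 and 34.4% in TB250718B. They held 1.87% in HJ, 3.44% in IG and 1.56% in PW, where IG was the highest ESC line. The genes called without IG held a mean of 33.2% of adult counts. Those called by DESeq2 held 28.5%, against 17.7% for the main call in edgeR. Of the 100 most abundant genes of adult tenocytes 45 had a Log2FC of 2 or more, and 19 were DE with IG and 43 without it. Of the 100 most abundant genes of ESC-tenocytes 31 had a Log2FC of -2 or less. DE genes among the 100 numbered 29 with IG and 29 without it, which need not be the same genes. Both lists shared 46 genes. Over all genes tested 9.66% were DE and higher in adult tenocytes and 9.55% were DE and higher in ESC-tenocytes, but choosing genes by their abundance in 1 group favours that group.

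Adult tenocytes also put more of their counts into a few genes. The 10 most abundant genes of each library held 15.5% in CD, 10.5% in TB130911 and 13.6% in TB250718B, against 7.91% in HJ, 8.86% in IG and 9.34% in PW. The groups did not overlap. The means were 13.2% ± 2.52 and 8.70% ± 0.725 (SD, n = 3 each; two-sided exact permutation test, p = 0.1, the smallest that 3 lines against 3 allow). The 100 most abundant genes held 32.3% ± 2.94 and 26.0% ± 0.661 (SD, n = 3 each; the same exact permutation test, p = 0.1). Genes above the floor numbered 12997 in CD, 13630 in TB130911 and 13523 in TB250718B, and 12595 in HJ, 13643 in IG and 12639 in PW. These values overlapped between groups (two-sided exact permutation test, p = 0.4). With all libraries thinned to 8965590 counts, IG had 13437 genes above the floor and the other 5 libraries had from 12547 to 12849.

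Genes on in 1 group and near zero in the other were more often those of ESC-tenocytes as long as IG was included. On was taken as at least 10 CPM in all 3 lines, and near zero as at most 3 counts in all 3 lines of the other group. Of 17248 genes with a count in any of the 6 libraries, 179 (1.04%) were on in ESC-tenocytes and near zero in adult tenocytes, and 23 (0.133%) were on in adult tenocytes and near zero in ESC-tenocytes. Those on in ESC-tenocytes reached a mean of 1024 CPM, 31 of them were at 100 CPM or more in all 3 ESC lines, and 84 had 0 counts in all 3 adult lines. Together they held between 1.84% and 1.95% of counts in each ESC line. Those on in adult tenocytes reached a mean of 111 CPM, none was at 100 CPM or more in all 3 adult lines, and 1 had 0 counts in all 3 ESC lines. How unequal the counts were depended on the threshold, since with on taken as at least 1 CPM 358 genes were on in ESC-tenocytes and 201 in adult tenocytes, and with at least 50 CPM these counts were 61 and 2. It also rested on IG, since without it 289 genes were on in adult tenocytes and 185 in ESC-tenocytes. The number on in adult tenocytes was 41 without TB130911.

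The 289 genes were chosen on the other 5 libraries, so their values in IG played no part in the choice. IG had at most 3 counts in 23 of them (7.96%) and at least 10 CPM in 39. It stood at a median of 5.24% of the adult mean, with quartiles of 2.84% and 8.91%. The median was 6.70% for the 108 genes from 10 to 30 CPM in adult tenocytes, 4.23% for 126 genes from 30 to 100 CPM, 6.33% for 39 genes from 100 to 300 CPM and 4.58% for 16 genes at 300 CPM or more. Most of these genes thus had counts above the floor in IG, at a low share of the adult level, and this share did not rise or fall steadily with their abundance.

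The same choice was made with each other library held out. With HJ or PW held out, 24 genes were on in adult tenocytes, and the held-out line was near zero in 23 of them. These genes had to be near zero in IG already, which nearly fixes that outcome, so HJ and PW cannot be set beside IG in this way. For genes on in ESC-tenocytes, CD was near zero in 179 of 190, TB130911 in 179 of 206 and TB250718B in 179 of 201. Each adult line was thus near zero in most genes chosen on the other libraries. In the genes on in ESC-tenocytes IG did not stand apart in this way. It had at least 10 CPM in 179 of the 185 genes chosen without it, at a median of 101% of the mean of HJ and PW. What gave the low adult-like signal in IG was not tested.

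**Figure D3:**
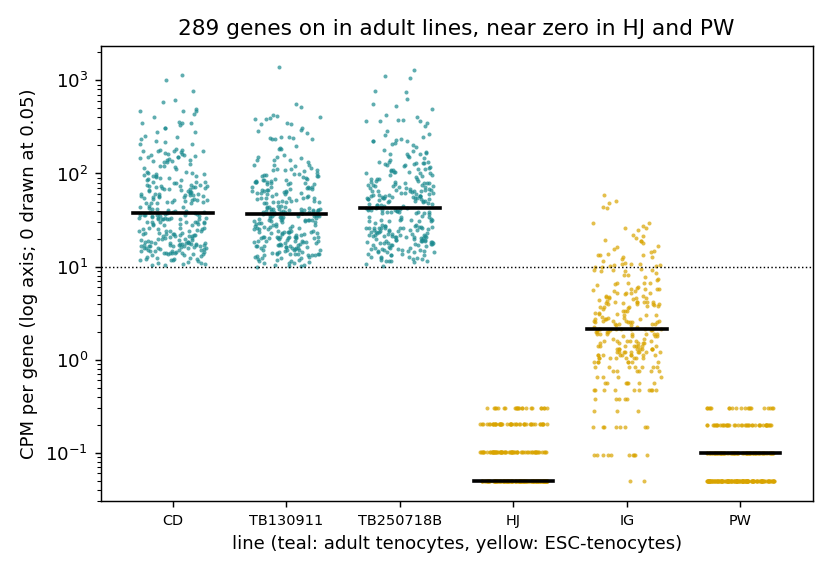
CPM on a log axis of 289 genes that had at least 10 CPM (dotted line) in all 3 adult lines and at most 3 counts in HJ and PW, in each of the 6 lines. Points are genes, with a small sideways shift for visibility, bars are medians and values of 0 are drawn at 0.05. IG was not used in the choice. The choice itself sets the adult lines high and HJ and PW near zero, so the place of IG between them carries no test.

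Among the genes on in 1 group and near zero in the other, the 2 with the highest mean CPM in each direction are given by line. Other DE genes were more abundant. The identifier ENSECAG00000020474 had 2986 counts in HJ, 13209 in IG and 15304 in PW, and 2 in CD, 1 in TB130911 and 0 in TB250718B. Expression was 1024 ± 644 CPM (SD, n = 3) in ESC-tenocytes, and the ratio of pooled counts per effective library size was 16443 (95% interval from 5626 to 79737, exact binomial, counting error only). All 3 ESC lines were high and all 3 adult lines were at or under the floor, with HJ the lowest ESC line. In edgeR the Log2FC was -13.74, with an SE of 1.19 and an adjusted p of 0.000369. It was -12.27 with the inferred batch as a term (adjusted p = 0.0111 in edgeR) and -12.30 with CD as the single adult library (adjusted p = 0.0273 in edgeR), and the call was lost in both. It was -14.85 without CD and -13.12 without TB250718B, both called. With the batch and all 9 libraries it was -12.08 and the call held (adjusted p = 0.00111 in edgeR). Over its 15 alternatives the adjusted p in edgeR or DESeq2 ran from 3.8e-28 to 0.0273. A fitted fold change of a gene at or near 0 in 1 group depends on the prior count and is no bound.

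The identifier ENSECAG00000002256 had 13818 counts in HJ, 8733 in IG and 5499 in PW, and 0 counts in each adult line. Expression reached 920 ± 430 CPM (SD, n = 3) in the ESC lines, at least 3111-fold higher than in adult tenocytes by the floor of 3 counts per library. Its adjusted p was 0.000435 in edgeR's quasi-likelihood test, where the Log2FC was -16.56. With CD as the single adult library the Log2FC was -16.21 and the call was lost. The call held in 14 of its 15 alternatives, with the lowest adjusted p, 4.94e-37, in DESeq2. Here HJ was the highest ESC line, the reverse of its place for ENSECAG00000020474.

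The identifier ENSECAG00000000239 had 1785 counts in CD, 308 in TB130911 and 2438 in TB250718B, and 0 in HJ, 2 in IG and 1 in PW. Expression was 111 ± 84.5 CPM (SD, n = 3) in adult tenocytes, and the ratio of pooled counts was 964 (95% interval from 330 to 4678, exact binomial, counting error only). All 3 ESC lines lay below the adult lines, of which TB130911 was lowest at 15.1 CPM against 176 in CD and 141 in TB250718B. In edgeR the Log2FC was 10.00, with an SE of 1.40 and an adjusted p of 0.00196. It was 10.85 without IG (adjusted p = 0.00427 in edgeR), and over its 15 alternatives the adjusted p ran from 4.11e-12 in DESeq2 to 0.00976.

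The identifier ENSECAG00000017802 had 524 counts in CD, 2193 in TB130911 and 2654 in TB250718B, and 0 in HJ, 3 in IG and 0 in PW. Its mean in the adult lines was 104 ± 50.7 CPM (SD, n = 3), with a ratio of pooled counts of 1143 (95% interval from 391 to 5545, exact binomial, counting error only). The 3 adult lines lay above all 3 ESC lines. In edgeR the Log2FC was 9.92, with an SE of 0.84 and an adjusted p of 0.000352. The 3 counts in the ESC lines all lie in IG, so the ratio and the Log2FC rest on that line, and without it the Log2FC was 13.46 (adjusted p = 0.000678 in edgeR). The call was lost with CD, the lowest adult line, as the single adult library (Log2FC 8.84, adjusted p = 0.0146 in edgeR). Over its 15 alternatives the adjusted p ran from 3.74e-24 in DESeq2 to 0.0146. All 4 identifiers were chosen for being on in 1 group and near zero in the other, so their place among DE genes is no separate result.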

How the data were processed

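RNA from 3D constructs of 3 adult tenocyte and 3 ESC-tenocyte lines was analysed, and the other 3 libraries of the series entered only alternatives. The authors quantified reads with Salmon against the Ensembl horse transcriptome, summed them to genes with tximport and deposited estimated counts, without normalisation, for 21689 genes. These were rounded to whole numbers. The length offsets of tximport were not used. Genes were filtered with filterByExpr by group (12791 kept), scaled with TMM factors and tested in edgeR 4.0.16 under R 4.3.3. The glmQLFit and glmQLFTest functions were used with group as the single term. The SE of a Log2FC was obtained from the F statistic as the absolute Log2FC over its square root. DESeq2 (version 1.42.0) was an alternative.

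The methods of the study state that a batch correction was applied, and name different providers, kits and instruments, but no label assigns a library to a batch. An inferred batch, taken from an earlier analysis of the series that compared fold changes with those of the study, was therefore an alternative only. Correlations and components used log2 CPM with a prior count of 2. Alternatives were other size factors, no filter, a mean CPM of at least 1, all 9 libraries, thinning to the shallowest library, other thresholds and each library left out. Some were chosen after seeing the data, namely an adjusted p under 0.05, DESeq2 without IG, thinning without IG, sizes and medians without IG and all those for the genes within a 2-fold change.

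The RefSeq gene table used for names matched 0 of the identifiers. Named genes are the 2 identifiers of highest mean CPM among those on in each group and near zero in the other. The plan also named a few genes by symbol, identified through values printed in the study. These were dropped after their values had been seen, since such a match does not pair an identifier with a name, and lists of marker genes were not used here. The libraries, lists and thresholds were chosen with earlier results of these data known. No library was a repeat of another, since a chi-square statistic over its degrees of freedom was at least 47.5 for each pair of lines in a group. Lines came from separate animals or embryos, and p-values measure the spread between lines.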

Additional observations from a re-analysis of the deposited data

How the results depend on the processing

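DE genes in edgeR (2458; 1236 higher in adult tenocytes, 1222 in ESC-tenocytes) numbered 971 (393 and 578) with the inferred batch as a term and 420 (89 and 331) with CD as the single adult library. In both fits the difference between groups rests on CD, whose spread is taken from the other libraries. The same batch with all 9 libraries gave 2284 (1253 and 1031). Without a fold change threshold there were 4458 (2203 and 2255). Leaving out each library gave 1453 to 2862 in all, 582 to 1639 higher in adult tenocytes (706 without CD, 816 without HJ, 817 without TB130911) and 871 to 1223 higher in ESC-tenocytes. DESeq2 without IG called 1899 higher in adult tenocytes. Genes higher in adult tenocytes were 50.4% of calls with no filter, 40.5% with the inferred batch, 54.9% with it and all 9 libraries, 21.2% with CD alone and from 40.1% to 57.3% with a library left out. No DE gene that was tested again changed sign in 15 fits, namely DESeq2, its size factors in edgeR, both filters, the inferred batch, all 9 libraries with and without it, CD alone, thinned counts and each of the 6 libraries left out. The values of all 2458 DE genes did not overlap between groups. This nearly fixes the sign in such fits, so that the unchanged sign is no separate result. Genes that changed by 8 log2 units or more numbered 149 higher in adult tenocytes without IG, DE or not, against 12 DE of 45 with it. Genes within a 2-fold change numbered 2687 with CD alone.

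Genes on in adult and near zero in ESC-tenocytes (23) numbered 201 with on at 1 CPM, 2 at 50 CPM, 1 with near zero as 0 counts, 290 with the libraries thinned and IG left out, and 23 to 289 with a library left out (41 without TB130911). Those on in ESC-tenocytes (179) numbered 358, 61 and 84 under the first 3 of these. Genes higher in adult tenocytes held 17.7% of adult and 1.77% of ESC counts, against 33.2% and 2.41% when chosen without IG and 28.5% and 2.08% when called by DESeq2. Of 60 alternative values for the 4 identifiers 4 lost the call, the causes not being tested. None changed direction, which the choice of these identifiers nearly fixes. No paired analysis was possible because the lines of the groups share no replicate.

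With 3 lines a group, 1 library decides many calls. The depth limits near zero to about 0.3 CPM in the shallower libraries. With all libraries thinned to equal depth 2404 genes were DE (1213 and 1191). The inferred batch and the difference between CD and the TB lines cannot be told apart.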
